A study of Mus musculus with 25 samples.

Results

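The genes described here are those of the proteasome, taken as every gene symbol that begins with Psma, Psmb, Psmc, Psmd, Psme, Psmf or Psmg and a digit. This rule found 50 of the 24015 gene symbols listed. Of these, 41 encode standard subunits, assembly chaperones, activators or an inhibitor, and 5 (Psmb8, Psmb9, Psmb10, Psme1 and Psme2) encode the immunoproteasome and the activator PA28 and were set apart. The other 4 symbols are Psma8, Psmb11, Psmc3ip and Psme2b.

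The proteasome is the protease that degrades proteins tagged with ubiquitin. Its core particle, the 20S, is a barrel of alpha rings, which gate the entrance, and beta rings, which carry the proteolytic sites. The 19S regulatory particle caps the barrel: its base unfolds substrates with a ring of ATPases, and its lid removes ubiquitin. Under interferon the catalytic subunits Psmb5, Psmb6 and Psmb7 are replaced in new particles by Psmb8, Psmb9 and Psmb10, which favour peptides that fit MHC class I.

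RNA was sequenced from basal cell carcinomas of mice and from ASZ001, a mouse basal cell carcinoma line. The tumours came from Ptch+/- mice of the C57BL6 strain that also carried K14 Cre-ER and p53 fl/fl, so that the keratin 14 promoter drives an inducible Cre, which deletes p53 in basal keratinocytes. Their age is not stated. All of the mice received a Smo inhibitor by gavage, and 4 tumours were labelled sensitive and 4 resistant. The ASZ001 cells, labelled as resistant cells, received vehicle, CCG-1423 (an inhibitor of the MRTF/SRF transcription pathway) or vismodegib (an inhibitor of the Hedgehog receptor protein Smo), with 3 libraries each. No dose or time is stated. All cell libraries come from a single line, and nothing says that they were separate cultures or that the tumours came from separate mice; the p-values therefore speak only of variation among these libraries, which may be technical.

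Reads at genes ranged from 8111252 to 14161398 in the sensitive tumours, from 17537094 to 20014426 in the resistant tumours and from 30455530 to 44017757 in the cells. Values below are normalized counts, that is, reads divided by a factor per library; a floor of 3 reads corresponds to 2.09 to 4.97 normalized counts in a tumour library and 2.45 to 3.40 in a cell library. Fold changes are on the scale of log2(normalized count + 1), and a gene was called where limma's adjusted p, over all genes tested, was below 0.05. Keratinocyte and carcinoma markers, Krt5, Krt14, Trp63, Gli1, Ptch1 and Epcam, had reads in every library. One tumour stood apart from its label: for many genes sensitive tumour 4 lay on the side of the resistant tumours, at or beyond their level. Sensitive tumours 1 to 3 lay below all 5 others for 23.5% of the genes tested and above them for 21.0%. These 3 also held 1391 to 2174 reads at 4 Y-linked genes, against 0 in each of the other 5, so without sensitive tumour 4 the group and the sex of the mice cannot be told apart. Tumour results are therefore given with all 8 tumours and without that library.

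CCG-1423 changed 40 of the 41 standard proteasome genes in ASZ001 cells, 4 of them by more than 1.5-fold. All alpha and structural beta genes of the 20S core fell, as did most genes of the 19S particle. All 4 of the 20S chaperones, 2 of the 3 19S chaperones, the activator Psme4 and the inhibitor Psmf1 rose. Of the 41 genes, 27 fell (65.9%) and 13 rose (31.7%) against vehicle. CCG-1423 had a broad effect, and these counts stand beside 42.6% of all 12775 genes tested that fell and 42.8% that rose. The share called in either direction was 97.6% of the 41, 89.6% of all 48 members tested and 85.3% of all genes. The median log2 change of the 41 was -0.26, beside 0.00 for all genes. Together the 41 genes took 0.504% to 0.512% of the reads at genes with vehicle and 0.446% to 0.477% with CCG-1423.

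**Figure D1:**
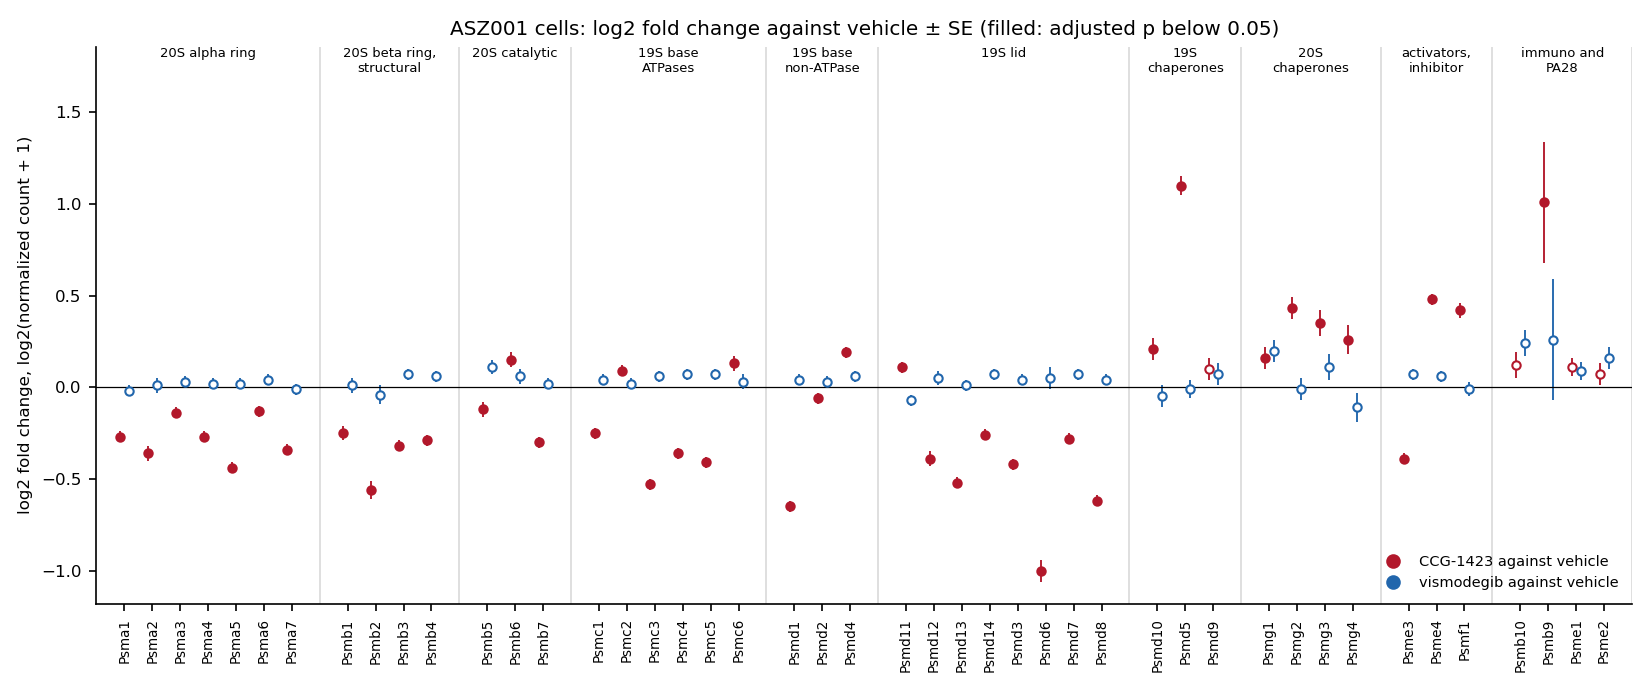
The log2 fold change against vehicle (vertical axis, on log2(normalized count + 1), bars ± SE) of each proteasome gene tested in ASZ001 cells (horizontal axis, grouped by role), with CCG-1423 in red and vismodegib in blue; filled points passed an adjusted p of 0.05. With CCG-1423 the 20S alpha genes lie between -0.44 and -0.13, Psmd5 lies at 1.10 and Psmd6 at -1.0, while all vismodegib points are open.

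The alpha ring genes Psma1 to Psma7, which form the outer rings of the barrel, all fell with CCG-1423. Their changes ran from -0.44 for Psma5 to -0.13 for Psma6. Psma5 had 3391, 3367 and 3329 normalized counts with vehicle and 2397, 2429 and 2587 with CCG-1423, so the groups did not overlap. The structural beta genes Psmb1 to Psmb4 fell too, from -0.56 for Psmb2 to -0.25 for Psmb1. Psmb2 had 2852, 2802 and 2817 normalized counts with vehicle (2824 ± 25.7, SD, n = 3) and 1806, 1955 and 2000.0 with CCG-1423 (1920.1 ± 102, SD, n = 3). The highest CCG-1423 library was far below the lowest vehicle library, and limma gave an adjusted p of 1.52e-08.

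The 3 constitutive catalytic genes did not move together. Psmb5, the chymotrypsin-like subunit, had 1688, 1705 and 1652 normalized counts with vehicle and 1529.8, 1522 and 1602 with CCG-1423, a log2 change of -0.12 ± 0.04 (SE). Psmb7, the trypsin-like subunit, had 4582, 4696 and 4581 with vehicle and 3600.5, 3774 and 3862 with CCG-1423, a change of -0.30 ± 0.03. Psmb6, the caspase-like subunit, went the other way. It had 4445, 4517 and 4405 with vehicle and 4663, 4986 and 5156 with CCG-1423, a change of 0.15 ± 0.04. None of the 3 pairs of groups overlapped, and limma's adjusted p was 0.00743 for Psmb5, 2.17e-07 for Psmb7 and 0.00148 for Psmb6.

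In the 19S base, 4 of the 6 ATPase genes fell, from -0.53 for Psmc3 to -0.25 for Psmc1, while Psmc2 (0.09 ± 0.03) and Psmc6 (0.13 ± 0.04) rose, the latter with overlapping groups and a call lost in 2 of 16 alternatives. Psmc3 had 4402, 4401 and 4488 normalized counts with vehicle and 3025, 2957 and 3199 with CCG-1423. The scaffold gene Psmd1, which holds docking sites for the lid and for deubiquitinases, had 9427, 9666 and 9387 with vehicle and 5898, 6164 and 6047 with CCG-1423. These groups were clearly separate, with a change of -0.65 ± 0.03 and an adjusted p of 3.78e-12 (limma). The other large scaffold, Psmd2, was at -0.06 ± 0.03 (adjusted p = 0.0407, limma), a call lost in 9 of 16 alternatives, and the ubiquitin receptor Psmd4 rose by 0.19 ± 0.03.

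The lid held the largest fall. Psmd6, a structural lid subunit, had 1898, 1802 and 1864 normalized counts with vehicle (1855 ± 48.9, SD, n = 3) and 1034, 813 and 956 with CCG-1423 (934 ± 112, SD, n = 3). Every CCG-1423 library was far below every vehicle library, and the log2 change was -1.0 ± 0.06 (adjusted p = 5.33e-10, limma). Psmd8, another lid subunit, had 5806, 5694 and 5605 with vehicle and 3572, 3701 and 3825 with CCG-1423, a change of -0.62 ± 0.03. The deubiquitinase gene Psmd14 fell by 0.26. Of the 8 lid genes only Psmd11, which clamps the lid to the core, rose (0.11 ± 0.03), and the lid's median was -0.40.

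Of the 7 assembly chaperones 6 rose, beside 42.8% of all genes, and Psmd9 did not pass. Psmd5, which binds the base ATPases during assembly and can also inhibit it, had the largest rise. It had 2606, 2650.0 and 2611 normalized counts with vehicle (2622 ± 24.0, SD, n = 3) and 5122, 5950.3 and 5824 with CCG-1423 (5632 ± 446, SD, n = 3). The groups were far apart, and the log2 change was 1.10 ± 0.05 (adjusted p = 2.39e-12, limma). Psmd10, the chaperone also called gankyrin, rose by 0.21 ± 0.06, and Psmd9 was at 0.10 ± 0.06 and did not pass. All 4 of the 20S chaperones rose, from 0.16 for Psmg1 to 0.43 for Psmg2. Psmg2 had 523, 562 and 573 with vehicle and 777, 714 and 738 with CCG-1423, with no overlap.

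The alternative caps of the core differed. Psme4 encodes PA200, a nuclear activator that works without ATP. It had 6422, 6641 and 6616 normalized counts with vehicle and 9044, 9340.4 and 9132 with CCG-1423, a change of 0.48 ± 0.03 (adjusted p = 1.15e-10, limma). Psmf1 encodes PI31, which binds and can inhibit the 20S core. It had 1514, 1504 and 1581 with vehicle and 2044, 2039 and 2081 with CCG-1423, a change of 0.42 ± 0.04. Psme3 encodes the nuclear PA28 gamma activator, and it fell: it had 8257, 8076 and 8237 with vehicle and 6527, 6008 and 6159 with CCG-1423, a change of -0.39 ± 0.03. None of these groups overlapped.

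Of the immunoproteasome genes, Psmb8 and Psmb9 had few reads in the cell line and Psmb10 had more. Psmb8 had 2 reads in each vehicle library, 11, 7 and 4 with CCG-1423 and 2, 3 and 7 with vismodegib; it was too low to be tested. Psmb9 had 14.7, 25.5 and 17.0 normalized counts with vehicle, 62.6, 44.1 and 20.4 with CCG-1423 and 22.4, 21.3 and 23.5 with vismodegib. CCG-1423 library 3 lay inside the vehicle range, and the other 2 lay above it. Psmb9 rose by 1.01 ± 0.33 on the log2 scale (adjusted p = 0.0103, limma), on 15 to 56 reads a library; it is not tested where a value of at least 50 is required. Without CCG-1423 replicate 1 its change was 0.67 and did not pass. Psmb10 had 471, 503 and 543 with vehicle, 584, 542 and 519 with CCG-1423 and 601, 552 and 636 with vismodegib. Its change with CCG-1423, 0.12 ± 0.07, did not pass (adjusted p = 0.134, limma).

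The PA28 genes, whose products form the interferon-inducible ring on the core, did not pass in either comparison with vehicle. Psme1 had 860.1, 791 and 817 normalized counts with vehicle, 865, 852 and 951 with CCG-1423 and 897, 855 and 869.6 with vismodegib. Psme2 had 1085, 1109 and 1037 with vehicle, 1252, 1084 and 1059.8 with CCG-1423 and 1247, 1145 and 1230.3 with vismodegib. With CCG-1423 their changes were 0.11 ± 0.05 and 0.07 ± 0.06 (adjusted p = 0.0618 and 0.290, limma), and both overlapped the vehicle range. So 1 of the 4 immunoproteasome and PA28 genes tested passed.

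The replacement of constitutive by immune catalytic subunits was measured as the log2 ratio of each pair in each library, compared by an exact two-sided permutation test. With 3 libraries a group this test cannot give a p below 0.1. Psmb8 to Psmb5 was -9.13 ± 0.17 (SD, n = 3) with vehicle and -7.67 ± 0.79 with CCG-1423. The vehicle level depends in part on the added 1, since Psmb8 was at 2 reads (1.63 to 2.26 normalized counts). With 0.5 added the difference was 1.62 in place of 1.46. Psmb10 to Psmb7 was -3.19 ± 0.11 with vehicle and -2.77 ± 0.14 with CCG-1423, with no overlap and p = 0.1 (exact permutation; 0.15 adjusted over the 3 pairs). Psmb9 to Psmb6 was -7.83 ± 0.38 and -6.97 ± 0.87 and overlapped (exact permutation p = 0.2). For Psmb10 to Psmb7, the difference of 0.42 was made up of a gain of 0.12 in Psmb10 that did not pass and a loss of 0.30 in Psmb7.

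**Figure D2:**
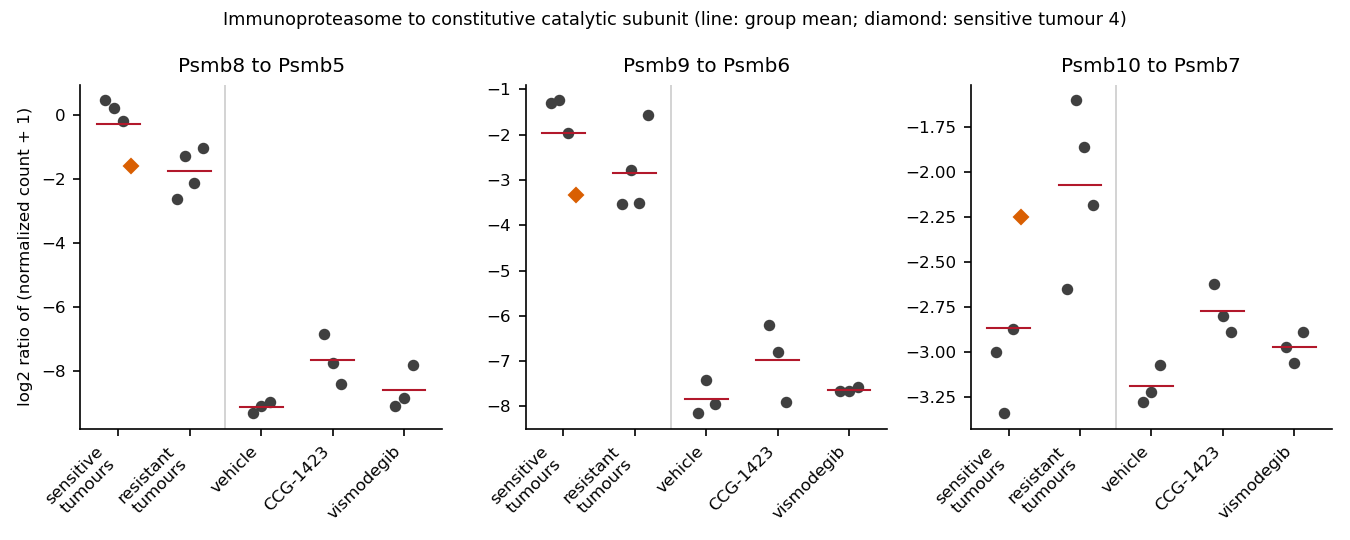
The log2 ratio of (normalized count + 1) of each immunoproteasome catalytic gene to the constitutive gene it replaces (vertical axis) in every library, by group (horizontal axis); points are libraries, the red line is the group mean and the orange diamond is sensitive tumour 4. All cell libraries lie far below the tumours for Psmb8 to Psmb5, with vehicle at -9.13 and sensitive tumours at -0.27 on average. Tumours and cells were normalized separately, but a factor per library cancels in this ratio apart from the added 1. Psmb8 had 2 reads in each vehicle library. Leukocyte markers were present in the tumours, and their part was not tested.

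Genes that act with the proteasome but fall outside the symbol rule were followed from lists chosen for their function. Of 15 partner genes, 7 fell and 6 rose with CCG-1423, beside 42.6% and 42.8% of all genes. Vcp encodes p97, the ATPase that extracts ubiquitinated proteins for degradation. It had 43216, 43338 and 43256 normalized counts with vehicle and 23520.3, 22990.5 and 24098 with CCG-1423, a change of -0.88 ± 0.03 (adjusted p = 2.18e-13, limma). The groups were far apart. Pomp, the maturation factor of the 20S core, fell by 0.41. The proteasome deubiquitinase Uchl5 (0.80 ± 0.04) and the shuttle Ubqln4 (0.73 ± 0.03) rose.

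Of 10 regulators of proteasome genes, 8 rose and 1 fell, beside 42.8% and 42.6% of all genes. Nfe2l1 encodes NRF1, the factor that induces proteasome genes when the proteasome is inhibited. It had 29931, 30973 and 30671 normalized counts with vehicle and 51433, 47326 and 49201 with CCG-1423, a change of 0.69 ± 0.03. Nfe2l2 encodes NRF2, which acts at antioxidant response elements. It had 2476, 2383 and 2343 with vehicle and 6016, 5978 and 6368 with CCG-1423, a change of 1.35 ± 0.04 (adjusted p = 2.80e-14, limma). In both genes all CCG-1423 libraries were above all vehicle libraries. Nfyb, a subunit of the CCAAT-binding factor NF-Y, rose by 0.69 ± 0.05, and the heat shock factor Hsf1 by 0.31 ± 0.03. Ngly1, whose enzyme processes NRF1, was the gene that fell (-0.53 ± 0.06). The list's median change was 0.25.

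Of 6 ubiquitin and E1 genes, 4 rose and 1 fell, beside 42.8% and 42.6% of all genes: the E1 Uba6 rose by 0.59 ± 0.04, the ubiquitin fusion gene Rps27a by 0.57 ± 0.04, and the major E1 Uba1 fell by 0.24. Of the 18 interferon and antigen presentation partners tested, 16 rose and 1 fell, beside 42.8% and 42.6% of all genes. In either direction, 85.3% of all genes passed in this comparison. Irf1, the interferon-responsive factor that acts on Psmb9, had 539.9, 507 and 484 normalized counts with vehicle and 2151, 2733 and 2703 with CCG-1423, a change of 2.30 ± 0.08 (adjusted p = 1.50e-13, limma). Jak2 (1.52 ± 0.04), Irf2 (1.17 ± 0.05) and Ifngr2 (1.04 ± 0.04) rose as well. Tap1, the peptide transporter gene that lies next to Psmb9 in the GRCm38.p6 gene order, had 506, 527 and 455 with vehicle and 2210.3, 1743 and 1536 with CCG-1423. Its groups were clearly apart (1.87 ± 0.10), whereas those of Psmb9 overlapped. This list's median was 0.89.

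The cells' own markers moved in the same comparison. The 6 keratinocyte and carcinoma markers summed to 1070763.5 to 1097643 normalized counts with vehicle and 195896 to 199896 with CCG-1423; 4 of them fell and 2 rose. The 20 leukocyte markers listed summed to 477 to 527 and to 843 to 1026 in these groups, with 8 to 12 at 0 in each library. Of the 4 that could be tested, 2 rose and 2 fell, beside 42.8% and 42.6% of all genes. The part of the marker loss in the proteasome values was not tested.

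The promoters were examined for sites of factors that act on proteasome genes. RefSeq windows of the 250 bases before the gene start (GRCm38.p6) were used for 39 of the 46 standard and immunoproteasome genes. No window was used for Psmb1, Psmb2, Psmb7, Psmc3, Psmd3, Psmd7 and Psmg2. Windows on a single chromosome were left out for the proteasome genes but kept among the promoters of all genes. The antioxidant response element core TGACNNNGC, searched on both strands, was in 5 of 34 standard promoters (14.7%) and in 11.5% of the promoters of 27025 genes. These 5 windows are shown because they match the core of the element at which NRF1 and NRF2 can act. Binding was not measured. The match is in capitals, with up to 30 bases on each side, in the direction of the gene:
Psmb5: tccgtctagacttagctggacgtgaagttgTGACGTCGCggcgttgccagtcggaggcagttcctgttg
Psmb6: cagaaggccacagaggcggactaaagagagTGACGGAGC
Psmc6: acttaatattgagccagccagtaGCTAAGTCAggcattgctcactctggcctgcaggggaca
Psmd9: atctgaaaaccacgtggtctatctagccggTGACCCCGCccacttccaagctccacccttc
Psmd12: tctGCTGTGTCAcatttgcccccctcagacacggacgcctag
They lie at chr14:54618004-54618072 (minus strand), chr11:70525318-70525356, chr14:45329574-45329635, chr5:123228129-123228189 and chr11:107479278-107479319 (plus strand), all upstream of the first exon. In Psmc6 and Psmd12 the core reads on the opposite strand. With CCG-1423, Psmb6 and Psmc6 of these genes rose, Psmb5 and Psmd12 fell, and Psmd9 did not pass. So the match was shared by genes that moved in both directions.

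Other motifs were counted in the same way. CCAAT was in 12 of 34 standard promoters (35.3%) and in 37.5% of all; the interferon factor core AANNGAAA was in 29.4% and in 23.9%. The CArG box, at which SRF binds, was in 1 standard promoter, that of the alpha subunit gene Psma6, and in 1.62% of all. The STAT site TTCNNNGAA was in 1 of 34 standard promoters, that of Psmg1 (2.94%), in 8.13% of all, and in the promoter of Psmb8. The latter pair is shown because SRF is the factor whose pathway CCG-1423 blocks and STAT factors act on the immunoproteasome, with the motif in capitals:
Psma6: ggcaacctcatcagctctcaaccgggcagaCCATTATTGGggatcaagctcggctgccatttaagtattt
Psmb8: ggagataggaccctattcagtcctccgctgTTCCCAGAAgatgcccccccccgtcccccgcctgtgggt
These lie at chr12:55384051-55384120 and chr17:34198068-34198136, on the plus strand before the first exon. The CArG box of Psma6 overlaps a CCAAT match on the other strand. Psma6 had 2824, 2732 and 2788 normalized counts with vehicle and 2531, 2562 and 2505 with CCG-1423, the smallest fall of the alpha ring. A match describes letters only.

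With vismodegib no proteasome gene passed. None of the 41 standard genes or the 4 immunoproteasome and PA28 genes tested passed against vehicle in limma, edgeR or DESeq2, beside 1.58% of all genes that rose and 3.92% that fell. At an unadjusted p below 0.05 there were 7 of the 41 and 2 of the 4, beside 2357 of all 12775 genes. The 41 changes lay between -0.11 (Psmg4) and 0.20 (Psmg1), with a median of 0.04 beside 0.01 for all genes. The 20S chaperone Psmg1 had 549, 512 and 543 normalized counts with vehicle and 588, 596 and 660.1 with vismodegib, with no overlap, and its change of 0.20 ± 0.06 did not pass (adjusted p = 0.0743, limma). Psmb5 had 1789, 1798 and 1848 with vismodegib, all above the vehicle libraries given above, at 0.11 ± 0.04 (95% interval 0.03 to 0.18, adjusted p = 0.113). Psmd11 (-0.07 ± 0.03) and Psmg4 (-0.11 ± 0.08) were the genes of smallest p on the lower side and did not pass either.

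The count for vismodegib depended on the scaling. The 41 genes took 0.544% to 0.557% of the reads at genes, above all vehicle libraries. When libraries were scaled to their total reads, 24 of the 41 and 3 of the 4 passed as higher, with changes of 0.10 to 0.32. That scaling passed 3229 of 12748 genes in either direction, against 703 of 12775 in the fit above, and put the median of all genes at 0.093.

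Among the immunoproteasome and PA28 genes with vismodegib, Psmb10 was higher by 0.24 ± 0.07 (95% interval 0.08 to 0.39) without overlap. It did not pass (adjusted p = 0.0712, limma). Psme2 was also higher without overlap and did not pass, with changes of 0.14 to 0.25 over the settings. Each of these genes gained a call in 2 of 16 alternatives. Psmb9 was at 0.26 ± 0.33. The ratios of immune to constitutive subunits differed by 0.54, 0.20 and 0.22 for the 3 pairs, with exact permutation p of 0.3, 0.4 and 0.1. Of the related lists, only Ifngr2, a chain of the interferon gamma receptor, passed (0.18 ± 0.04, adjusted p = 0.00955, limma). The regulators Nfe2l1 and Nfe2l2 were at 0.08 ± 0.03 and -0.10 ± 0.04 and did not pass, and Vcp was at 0.07 ± 0.03.

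CCG-1423 and vismodegib were also compared directly. CCG-1423 libraries were lower for 27 of the 41 standard genes and higher for 12, beside 42.4% of all genes lower and 42.4% higher. Psmd6 had 1900.1, 1912 and 1931 normalized counts with vismodegib, a difference of -1.04 ± 0.06. Psmd1 differed by -0.69 ± 0.03, Psmd8 by -0.66 ± 0.03 and Psmc3 by -0.59 ± 0.03. In the other direction Psmd5, with 2568, 2579.7 and 2666 with vismodegib, differed by 1.11 ± 0.05, Psmg2 by 0.44 ± 0.06, Psmf1 by 0.43 ± 0.04 and Psme4 by 0.42 ± 0.03. This comparison uses the same CCG-1423 libraries as the one with vehicle. Psmb5 (-0.22 ± 0.04), Psmb7 (-0.32 ± 0.03) and Psmb6 (0.09 ± 0.04) passed in limma with adjusted p of 3.11e-05, 9.73e-08 and 0.0362. The call of Psmb6 was lost in 4 of 16 alternatives (0.04 to 0.13).

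Among the immunoproteasome and PA28 genes 1 of the 4 tested passed between the compounds. Psmb9 was higher with CCG-1423 by 0.76 ± 0.33 (adjusted p = 0.0449, limma) with overlapping groups, and this call was lost without a filter on low values, with total-read scaling and on leaving out each of 6 single libraries, CCG-1423 replicates 1 and 2, vehicle replicate 3 and vismodegib replicates 1 to 3 (0.41 to 0.79). Psmb10, Psme1 and Psme2 differed by -0.12 ± 0.07, 0.02 ± 0.05 and -0.10 ± 0.06. The partner Vcp differed by -0.95 ± 0.03, and Nfe2l2 by 1.45 ± 0.04.

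In the tumours, no proteasome gene passed between the resistant and sensitive groups of 4. This was 0 of 41 standard and 0 of 5 immunoproteasome and PA28 genes by limma, beside 0.0332% of all 15076 genes that were higher and 0.0796% that were lower. At an unadjusted p below 0.05 there were 9 of the 41 and 2 of the 5, beside 3789 of all 15076 genes. edgeR called none, and DESeq2 called Psmd2 (-0.93) and Psmd14 (-0.40) lower. The median of the 41 was 0.20, beside 0.03 for all genes. In a piece of tumour, fewer cells of a type and less RNA per cell cannot be told apart.

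**Figure D3:**
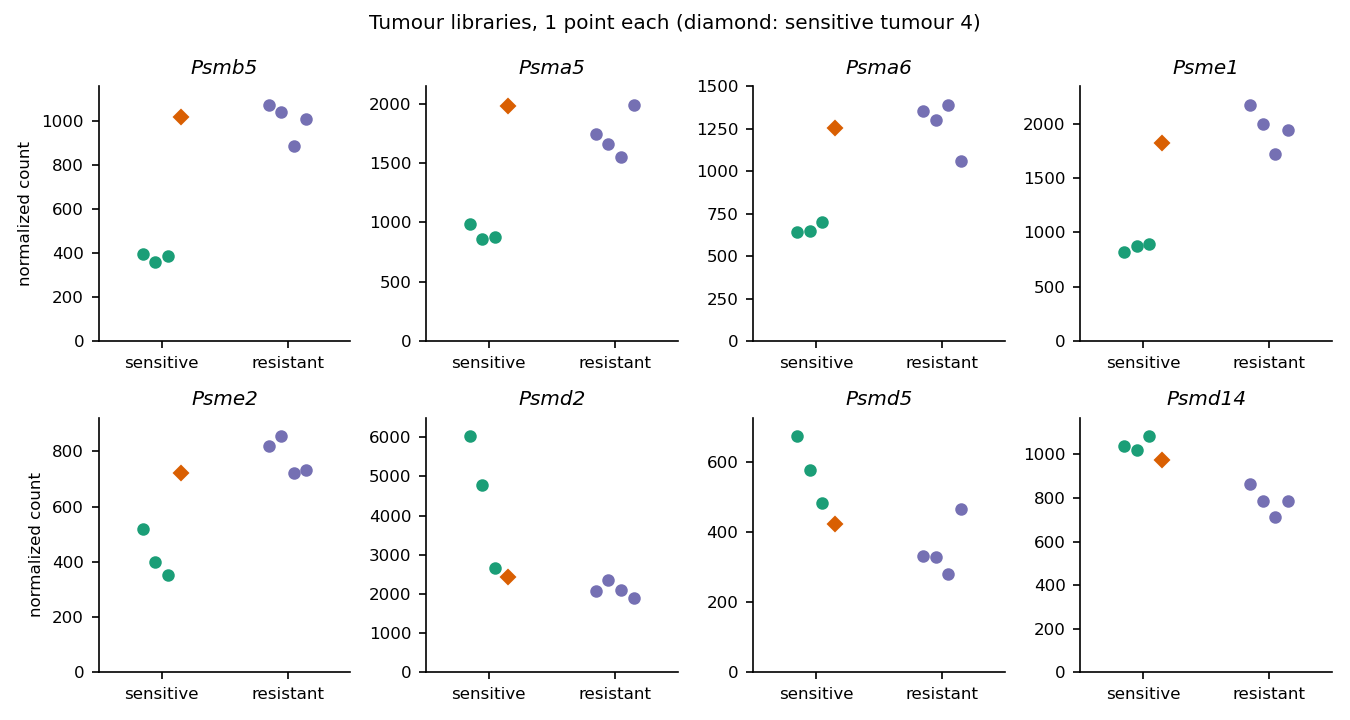
Normalized counts (vertical axis, from 0) of 8 proteasome genes in each sensitive and resistant tumour (horizontal axis), with 1 point a library and sensitive tumour 4 as an orange diamond. For Psmb5 the 3 other sensitive tumours lie at 360.3 to 395, while sensitive tumour 4, at 1021, lies among the resistant tumours at 886 to 1074.

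The sensitive group was widely spread for many of these genes. Psmb5 had 395, 360.3, 386 and 1021 normalized counts in sensitive tumours 1 to 4 (540.4 ± 320.5, SD, n = 4) and 1074, 1043, 886 and 1011 in the resistant tumours (1003 ± 82.6, SD, n = 4). Sensitive tumour 4 was at the level of the resistant tumours, and the other 3 were below 50% of it. The log2 change was 1.04 ± 0.32 with all 8 (adjusted p = 0.143, limma) and 1.39 ± 0.13 without sensitive tumour 4 (adjusted p = 0.000246). Psma6, an alpha ring gene, had 643, 646, 699 and 1255 in the sensitive and 1354, 1299.9, 1391 and 1061 in the resistant tumours. It showed the same arrangement, with 0.71 ± 0.23 and 0.94 ± 0.14 in the fits with and without that library (adjusted p = 0.148 and 0.00148).

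Without sensitive tumour 4, a fit added after the data were seen, 15 of the 41 standard genes rose and 3 fell, beside 20.6% and 19.4% of all 15479 genes. The 15 are 36.6% of the 41 and the 3 are 7.32%, and the median of the 41 was 0.34 beside 0.02 for all genes. The summed share of reads at genes showed no such rise. For the 41 together it was 0.358%, 0.344%, 0.332% and 0.331% across resistant tumours 1 to 4. Sensitive tumour 1 had 0.356%, sensitive tumour 2 had 0.341% and sensitive tumour 3 had 0.307%, so these shares overlapped. Sensitive tumour 4 had the highest share, 0.411%. By role, 6 of the 7 alpha genes, 2 of the 3 catalytic genes, 3 of the 6 ATPase genes, 2 of the 4 20S chaperones, 1 of the 8 lid genes and 1 of the 3 19S chaperones rose. None of the 4 structural beta genes passed. On leaving out a further tumour the 15 became 5 (sensitive tumour 2) or 8 (sensitive tumour 3), and the 3 became 0 (sensitive tumour 2) or 1 (sensitive tumour 1 or resistant tumour 3). Psma5 rose by 0.93 ± 0.14: it had 989, 859, 878 and 1986 normalized counts in the sensitive and 1743, 1659, 1553 and 1992 in the resistant tumours. Psmd10 rose by 0.79 ± 0.21, and in it sensitive tumour 4, with 837, was above every other tumour (215 to 535). The low-count 20S chaperone Psmg4 had 15.0, 7.06, 19.9 and 38.5 in the sensitive and 37.6, 53.3, 46.8 and 38.4 in the resistant tumours, a change of 1.68 ± 0.38.

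**Figure D4:**
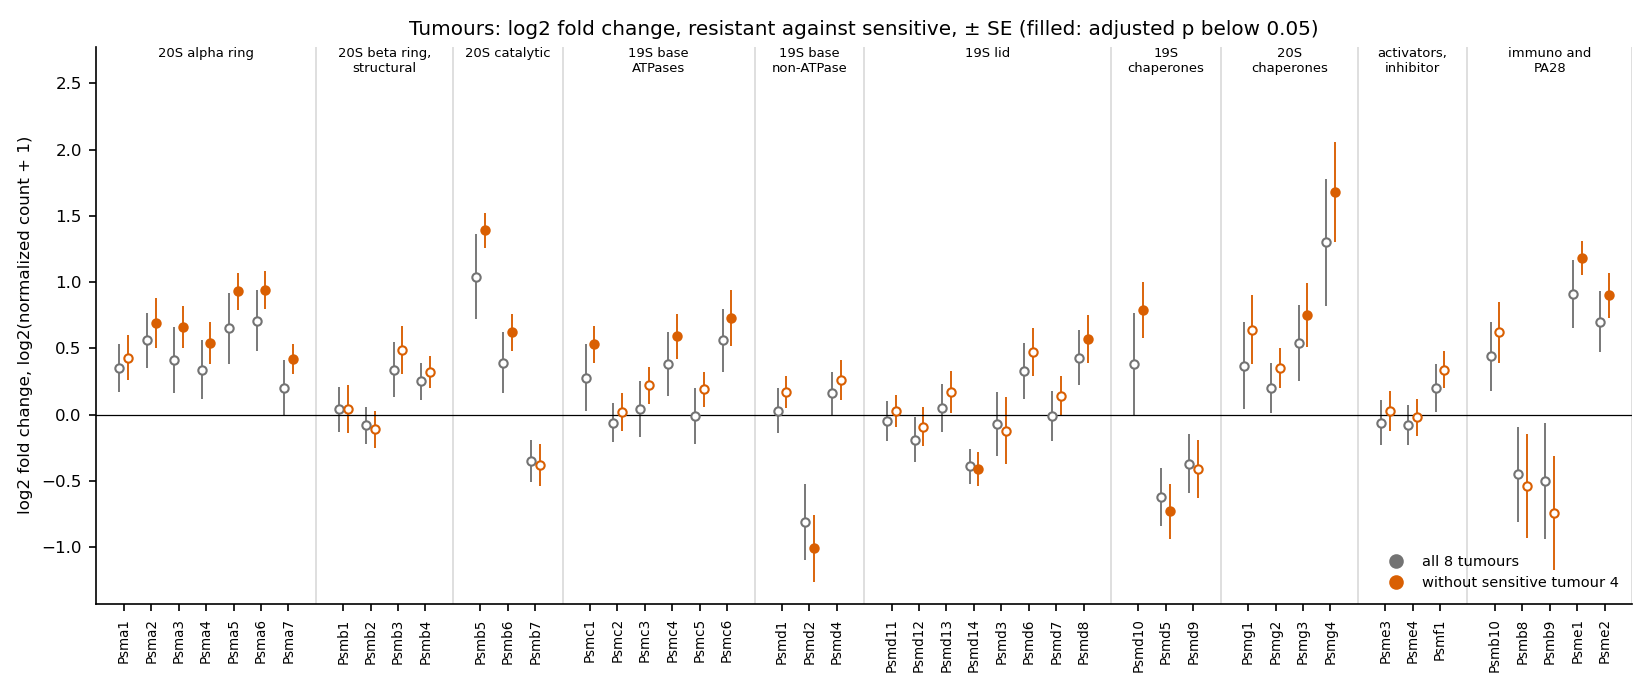
The log2 fold change of resistant against sensitive tumours (vertical axis, on log2(normalized count + 1), bars ± SE) for each proteasome gene (horizontal axis, grouped by role), with all 8 tumours in grey and without sensitive tumour 4 in orange; filled points passed an adjusted p of 0.05. No grey point is filled, and 15 standard genes are filled in orange above 0, led by Psmg4 at 1.68 and Psmb5 at 1.39.

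A few subunits went the other way. Psmd2, a scaffold of the base that receives substrates, had 6020.0, 4769.9, 2669.5 and 2421 normalized counts in the sensitive tumours and 2086, 2346, 2109 and 1892 in the resistant tumours. All resistant tumours were below all sensitive ones, but the sensitive tumours themselves ranged over more than 2-fold. Its change was -0.81 ± 0.29 with all 8 and -1.01 ± 0.25 without sensitive tumour 4 (adjusted p = 0.156 and 0.0136, limma). Psmd14, the lid deubiquitinase, had 1039, 1019, 1083 and 974 in the sensitive and 866, 789, 711 and 787 in the resistant tumours. Here sensitive tumour 4 stayed with its label, and the change was -0.39 ± 0.13 and -0.41 ± 0.13, the latter passing (adjusted p = 0.031, limma) and lost in 5 of 12 alternatives. Psmb7 was the other gene without overlap. It had 1127, 1085, 1008 and 989 in the sensitive and 982, 799, 663 and 890.2 in the resistant tumours, and did not pass in either fit (-0.35 ± 0.16 and -0.38 ± 0.16).

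So 3 of the 41 genes were lower without overlap, beside 4.0% of all genes, and 0 were higher, beside 3.90%. The 19S chaperone Psmd5 had 672, 576, 484 and 422 in the sensitive and 330.5, 329, 281 and 466 in the resistant tumours. It was the highest in the resistant group in tumour 4, which overlapped sensitive tumour 4, and its changes were -0.62 ± 0.22 and -0.73 ± 0.21, the latter passing (adjusted p = 0.0235, limma) and lost in 3 of 12 alternatives. In the cells Psmd5 was the gene that rose most with CCG-1423.

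None of the immunoproteasome and PA28 genes passed with all 8 tumours. Psme1 had 815, 870.3, 893 and 1821 normalized counts in the sensitive and 2173, 1994, 1724 and 1942 in the resistant tumours. Psme2 had 518, 399.8, 351 and 724 in the sensitive and 818, 855, 722 and 733 in the resistant tumours. In both, sensitive tumour 4 was at the resistant level. Their changes were 0.91 ± 0.26 and 0.70 ± 0.23 with all 8 (adjusted p = 0.139 and 0.147, limma) and 1.18 ± 0.13 and 0.90 ± 0.17 without that library (0.000407 and 0.00386).

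The immune catalytic genes did not pass in either fit. Psmb8 had 547, 419.6, 339.5 and 341 in the sensitive and 174, 430.3, 201 and 497 in the resistant tumours. Psmb9 had 327, 308, 220.2 and 146 in the sensitive and 114, 191, 99.9 and 368 in the resistant tumours. Resistant tumour 4 was high in both, resistant tumours 1 and 3 were low, and the groups overlapped. Their changes were -0.45 ± 0.36 and -0.50 ± 0.44, and neither passed in either fit. Psmb10 had 140.4, 106, 137 and 208 in the sensitive and 156, 262, 182 and 196 in the resistant tumours, with 0.44 ± 0.26 and 0.62 ± 0.23, neither passing (adjusted p = 0.299 and 0.0592).

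The ratio of Psmb8 to Psmb5 was -0.27 ± 0.91 (SD, n = 4) in the sensitive and -1.76 ± 0.74 in the resistant tumours, a difference of -1.49 (exact permutation p = 0.0857). Without sensitive tumour 4 the sensitive mean was 0.17 ± 0.33, and the groups did not overlap (exact permutation p = 0.0286, the smallest it can give with 3 against 4; 0.0857 adjusted over the 3 pairs). Psmb9 to Psmb6 differed by -0.89 with all 8 (exact permutation p = 0.257) and by -1.35 without sensitive tumour 4 (exact permutation p = 0.0857). Psmb10 to Psmb7 differed the other way, by 0.79 with all 8 and, without overlap, by 1.0 without that library (exact permutation p = 0.0571 in both). With all 8 tumours none passed once adjusted over the 3 pairs, with 0.129, 0.257 and 0.129. The means of the first 2 pairs were lower in the resistant tumours and that of the last was higher.

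Leukocytes express the immunoproteasome, and their markers varied among the tumours. The 20 leukocyte markers listed summed to 16255 to 35669.5 normalized counts in the sensitive and 14489 to 98403 in the resistant tumours. Resistant tumour 4 had the highest sum, with 67712 from Lyz2 alone, and was also the highest resistant tumour for Psmb8 and Psmb9. Sensitive tumour 4 had the highest sum of its group, 35669.5, and the lowest Psmb9 of that group, 146. That sum included 8162 from S100a9 and 2864 from S100a8, which were at most 249.8 and 120.9 in sensitive tumours 1 to 3. Other markers differed in direction. In sensitive tumour 4 Ptprc, Csf1r, Cd68 and Itgam were the highest of the group, and Cd74, H2-Ab1, Emr1 and Cd4 were the lowest. Psmb8 in sensitive tumour 4 was 341, where the sensitive tumours ran from 339.5 to 547. Between 0 and 5 of the 20 were at 0 in a tumour. The keratinocyte and carcinoma markers summed to 116432, 140167 and 172859.7 in sensitive tumours 1 to 3, to 60132 in sensitive tumour 4 and to 28191 to 68291 in the resistant tumours. Of these 6 markers, the Hedgehog targets Gli1 and Ptch1 went against the sums. Gli1 ranged from 1456 to 3541 across the resistant group, while tumours 1 to 3 of the sensitive group held 531.8, 544.0 and 649.2. Ptch1 ranged from 1166 to 3392, against 255.5, 165.3 and 548.1. Without sensitive tumour 4, 2 of the 6 markers passed as higher and 4 as lower (limma). The part of leukocytes and of keratinocyte or carcinoma cells in the proteasome values was not tested.

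Among the related genes, none of the 15 partners, 10 regulators, 6 ubiquitin and E1 genes or 18 interferon and antigen presentation genes tested passed with all 8 tumours, by limma. Vcp had 4793, 5411, 5048 and 4117 normalized counts in the sensitive and 3289, 3165, 3264 and 3365 in the resistant tumours, with no overlap, at -0.56 ± 0.14 (adjusted p = 0.136). Without sensitive tumour 4, Vcp fell (-0.63 ± 0.12), Shfm1, the smallest lid component, rose (1.36 ± 0.20), and Nfe2l2 rose (1.01 ± 0.23). Foxo4 fell (-1.13 ± 0.20), as did Ddi2, the protease that activates NRF1 (-0.67 ± 0.18). Rps27a (1.28 ± 0.19) and Ubb (0.59 ± 0.14) rose. These calls stand beside 20.6% of all genes higher and 19.4% lower. Of the 18 interferon and antigen presentation genes, 4 rose, among them Irf9 (1.19 ± 0.30) and Ifngr2 (0.63 ± 0.14), and 5 fell, among them Tap1 (-1.34 ± 0.18) and the MHC class I transactivator Nlrc5 (-1.45 ± 0.30).

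The 4 remaining symbols are special cases. Psma8, the testis-specific alternative to Psma7, had 185, 59.3, 26.5 and 4.05 normalized counts in the sensitive tumours and 1.58 to 5.92 in the resistant tumours, where 2 of the 4 libraries had 2 reads. It was too low to be tested with all 8, and the resistant tumours were at or near the floor. Sensitive tumour 1 was far above the rest. In the cells Psma8 had 126, 124 and 99.6 with vehicle and 81.6, 64.9 and 73.2 with CCG-1423, a change of -0.66 ± 0.15. Psmc3ip encodes a recombination factor that binds a 19S ATPase and is no subunit. It fell with CCG-1423 (-0.61 ± 0.13) and rose in the resistant tumours without sensitive tumour 4 (0.94 ± 0.19), where that library, with 363, was again at the resistant level of 271 to 370.2.

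Psmb11, the thymus-specific catalytic subunit and the neighbour of Psmb5 in the GRCm38.p6 gene order, had 13.2 to 36.8 normalized counts in the tumours and 1 to 6 reads in each cell library. Psme2b, a near copy of Psme2 whose reads may be split between the 2 genes, had 3.31 to 31.5 normalized counts across the tumours, and the cell libraries held 16.4 to 30.2. Psmb11 was tested only in the tumours. Neither passed where tested.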

How the data were processed

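Per the submitters' processing notes, the authors used TopHat, DESeq and the mouse build mm9; their versions and roles, and how shared or antisense reads were counted, are not stated. The authors deposited 2 tables of normalized counts (a signal, reads divided by a factor per library), 1 for 8 tumours and 1 for 9 cell libraries. Dividing by each library's smallest step recovered whole reads for 100.0% of values (tolerance 0.01). Of 25 samples, the 8 exome samples were not analysed here.

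log2(normalized count + 1) was fitted with limma 3.58.1 (R 4.3.3, trend) over all genes with at least 10 in 4 tumours or 3 cell libraries, 1 fit per table, with Benjamini-Hochberg adjustment. Without sensitive tumour 4 the requirement was at least 10 in 3 tumours. edgeR 4.0.16 (quasi-likelihood) and DESeq2 1.42.0 were run on recovered reads as alternatives. The script was tested on simulated counts. Ratios used exact permutation.

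Named genes were the 5 immunoproteasome and PA28 genes with Psmb5, Psmb6 and Psmb7, up to 4 standard genes each way by size of change with a mean of at least 50 (or the 2 of smallest p), the extremes of each role, the 4 odd symbols and up to 4 genes of smallest p in each related list. Pomp, Ngly1 and Tap1 with CCG-1423, and the values per library of Psma5, Psma6, Psmc3 and Psme3 in the cells and of Psmg4 in the tumours, were chosen after they were seen. Some genes of the related lists are not reported here by name. The members and lists were chosen with earlier results of these data known. The fit without sensitive tumour 4 was added after seeing the data. Promoters came from RefSeq (GRCm38.p6) and were not compared with mm9 coordinates. Depth limits low genes: 3 reads were taken as the floor, and it covers counting error only.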

Additional observations from a re-analysis of the deposited data

Results flagged for a closer look

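In groups of 4 tumours, a value was set apart where its gap to the nearest other tumour was most of the group's range (Dixon's test at 95%). Of 106 groups tested, 14 held such a tumour. The groups are genes of the same tumours and are not independent, so a chance rate of 5 in 100 cannot judge this count. How often such a tumour occurs among all genes was not tested. In 13 of the 14 groups the tumour set apart was sensitive tumour 4, above the other 3 sensitive tumours. Its normalized counts were 1985.6 for Psma5, 1254.8 for Psma6 and 2809.6 for Psma7 in the alpha ring, and 925.4 for Psmb3, 1311.6 for Psmb4 and 1020.7 for Psmb5 in the beta ring. In the 19S particle they were 1645.0 for Psmc2, 1478.8 for Psmc3, 1440.3 for Psmc4, 4223.5 for Psmd1 and 1825.4 for Psmd7. They were 349.7 for the chaperone Psmg2 and 1821.4 for the PA28 gene Psme1. Sensitive tumour 4 was also above every resistant tumour for genes such as Psma7, Psmc3 and Psmd1. The highest resistant values of these were 2139.0, 1176.9 and 3529.0. For others, such as Psmb5 and Psme1, it lay within the resistant range. The other case was the activator Psme4, with 4987.4 in resistant tumour 1, away from the other 3 resistant tumours. Sensitive tumours 1 to 3 lay below all 5 other tumours for 20 of the 41 standard genes (48.8%), beside 23.5% of all genes, and above them for 4 (9.76%), beside 21.0%.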

How the results depend on the processing

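In the tumours, where limma passed 0 proteasome genes, DESeq2 passed 2 standard genes as lower; over all genes the count was 17 by limma, 0 by edgeR and 1630 by DESeq2. Leaving out 1 tumour gave 0 to 15 standard genes higher, 0 to 3 lower and 0 to 2 immunoproteasome genes higher, the top of each range without sensitive tumour 4. In the fit without that tumour, total-read scaling gave 9 standard genes higher in place of 15, and leaving out a further tumour gave 5 to 17 higher, 0 to 3 lower and 0 to 1 immunoproteasome genes lower. With CCG-1423 against vehicle, the immunoproteasome genes higher were 1, and 2 without a filter on low values, 0 with a filter at 50, 2 with total-read scaling and 1 to 2 on leaving out a library. Against vismodegib they were 1, and 0 without a filter, 0 with a filter at 50, 0 with total-read scaling and 0 to 1 on leaving out a library; those lower were 0, and 2 with total-read scaling and 0 to 2 on leaving out a library. With vismodegib against vehicle, total-read scaling passed 24 standard and 3 immunoproteasome genes as higher in place of 0 and 0, among 3229 genes called over all in place of 703, and leaving out a library gave 0 to 2 of each (2 without CCG-1423 replicate 1, which enters only the shared spread). The cause of these changes was not tested, apart from the filter at 50, which leaves Psmb9 untested.

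The standard genes that passed with CCG-1423 against vehicle were 11 to 13 higher and 26 to 27 lower on leaving out a library. Deviations of same-numbered libraries were weakly correlated, from -0.146 to 0.122 in the tumours and from -0.043 to 0.037 in the cells. With so few libraries this cannot tell whether the numbers pair them, and the main fit used no pairing. With the replicate number as a block, 13 were higher and 26 lower. Against vismodegib they were 12 and 27, and in the tumours and with vismodegib 0. Over 3626 values of single genes under the alternatives, 87 calls were lost and 74 gained, and 0 called changes turned their sign. Depth limits Psmb8 and Psmb11 in the cells and Psma8 in the resistant tumours, which lay at or near the floor of 3 reads.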

Other observations

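Promoters and gene order add values that belong to no comparison above. The RefSeq promoter windows of Psmb9 and Tap1 (GRCm38.p6) are reverse complements of each other over 275 bases, since the 2 genes start in opposite directions, and Psmb8 lies between Tap1 and Tap2. In the tumours without sensitive tumour 4, Tap1 fell by 1.34 and Psmb9 was at -0.74 ± 0.43 and did not pass. With CCG-1423, Tap1 rose by 1.87. Psmb9 was at 1.01, a call that was lost, at 0.67, without CCG-1423 replicate 1.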
